A study of Homo sapiens with 4 samples.

Results

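The kinetochore, spindle checkpoint and cytokinesis genes described here are 59 genes of mitosis, taken by name from a fixed list that holds centromere, kinetochore, checkpoint, condensin, mitotic kinase, anaphase-promoting complex (APC/C), spindle assembly and cytokinesis genes and leaves out the kinesin motors other than *CENPE*. No measured value enters the rule, but the list was chosen with earlier results of these data known. All 59 were found among the 18449 gene symbols of the count table. Their RNA was measured in BT-16 and CHLA-266, 2 established cell lines of atypical teratoid/rhabdoid tumor (AT/RT), a malignant brain tumor of infancy that in most cases has lost *SMARCB1*, both of the MYC subgroup. Untreated cells of each line were compared with cells that had been exposed to doxorubicin (1 µM), etoposide (5 µM) and vincristine (1 µM) on 3 consecutive days. According to the study's methods the drugs were given one after the other, most cells died, and the survivors grew out again over several weeks before RNA was taken. Doxorubicin and etoposide poison topoisomerase II and break DNA, and vincristine blocks the assembly of microtubules. There was 1 library per cell line and condition, 2 libraries per condition and 4 in all, and the labels name 1 batch for the 4 libraries. The cell lines therefore serve as the replicates, and *p* values for treatment measure the spread between them. Where the cell lines themselves were compared, the conditions served as the replicates.

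Mitosis needs a kinetochore on each centromere, which is built from an inner part on the DNA and an outer part that binds microtubules. Until every kinetochore is attached, the spindle checkpoint holds back the APC/C, the ubiquitin ligase that starts anaphase by removing securin and cyclin B. Condensin compacts the chromosomes, the chromosomal passenger complex corrects wrong attachments, and the cytokinesis genes build the contractile ring that separates the daughter cells. Most of these genes are transcribed late in the cell cycle, and many of their promoters carry a CHR (cell cycle genes homology region) near the start of transcription and CCAAT boxes before it. The CHR is bound by the MuvB proteins, together with MYBL2 and FOXM1 in dividing cells and with E2F4 and p130 (the DREAM complex) in resting cells, and CCAAT boxes are bound by NF-Y.

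The promoters of 5 genes are shown because they bear these letters in different numbers and belong to genes that fell by very different amounts. Each runs 5′ to 3′ on the strand of the gene, from 250 bases before to 50 after the start (RefSeq, GRCh38.p14), and capitals mark TTTGAA (the CHR) and CCAAT on either strand. *MKI67*, the proliferation marker, lies at chr10:128126374-128126673 on the minus strand. *PLK1*, a mitotic kinase, lies at chr16:23678639-23678938 on the plus strand. *NDC80*, a microtubule-binding kinetochore gene, lies at chr18:2571307-2571606 on the plus strand. *CDC20*, an activator of the APC/C, lies at chr1:43358731-43359030 on the plus strand. *MIS12*, which links inner and outer kinetochore, lies at chr17:5486124-5486423 on the plus strand, and the first of its 2 windows is shown.
MKI67: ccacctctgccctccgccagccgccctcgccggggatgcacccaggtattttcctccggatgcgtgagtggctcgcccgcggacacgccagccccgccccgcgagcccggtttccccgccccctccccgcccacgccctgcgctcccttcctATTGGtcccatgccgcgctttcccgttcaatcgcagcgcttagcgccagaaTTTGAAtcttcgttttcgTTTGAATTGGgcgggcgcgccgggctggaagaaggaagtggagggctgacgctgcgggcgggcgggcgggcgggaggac
PLK1: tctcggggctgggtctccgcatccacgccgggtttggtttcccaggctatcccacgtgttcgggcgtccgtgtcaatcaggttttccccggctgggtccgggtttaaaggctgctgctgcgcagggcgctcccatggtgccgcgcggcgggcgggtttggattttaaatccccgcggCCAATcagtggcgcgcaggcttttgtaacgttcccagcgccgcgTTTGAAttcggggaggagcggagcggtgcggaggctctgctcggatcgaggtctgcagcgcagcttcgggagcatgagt
NDC80: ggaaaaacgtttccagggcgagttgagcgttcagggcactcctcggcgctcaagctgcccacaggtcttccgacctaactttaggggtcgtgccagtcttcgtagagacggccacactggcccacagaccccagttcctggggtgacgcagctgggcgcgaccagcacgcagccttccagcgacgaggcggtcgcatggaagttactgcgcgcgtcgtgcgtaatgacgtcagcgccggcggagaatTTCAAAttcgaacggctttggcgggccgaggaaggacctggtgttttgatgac
CDC20: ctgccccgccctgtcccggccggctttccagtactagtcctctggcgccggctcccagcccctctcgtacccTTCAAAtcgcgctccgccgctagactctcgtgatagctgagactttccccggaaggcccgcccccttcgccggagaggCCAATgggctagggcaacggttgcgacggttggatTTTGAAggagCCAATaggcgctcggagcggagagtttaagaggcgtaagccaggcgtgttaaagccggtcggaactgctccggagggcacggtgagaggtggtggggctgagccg
MIS12: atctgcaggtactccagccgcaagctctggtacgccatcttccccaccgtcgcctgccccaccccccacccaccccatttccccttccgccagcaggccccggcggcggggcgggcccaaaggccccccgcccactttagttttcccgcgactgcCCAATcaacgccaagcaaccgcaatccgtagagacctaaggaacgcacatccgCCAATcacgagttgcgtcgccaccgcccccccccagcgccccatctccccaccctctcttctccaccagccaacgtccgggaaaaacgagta

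In these windows *MKI67* held the CHR letters at positions -47 and -29 from the start, and the second of these shared a base with a CCAAT box. *PLK1* held them at -29 with a CCAAT box at -73, and *NDC80* held them at -3 with no CCAAT box. *CDC20* held them at -178 and -65 with CCAAT boxes at -100 and -55, whereas *MIS12* had CCAAT boxes at -95 and -42 and no CHR letters in this window. Of the 59 genes, 49 matched the promoter table, with 60 windows between them. TTTGAA or its reverse complement TTCAAA was found in 35 of the 60 windows (58.3%), compared with 15.2% of all 35116 windows and 12.3% of the 20344 windows of genes tested. Within 50 bases of the start it was found in 28 windows (46.7%), against 4.62% of all windows and 3.52% of those of tested genes. CCAAT on either strand was found in 42 windows (70.0%), against 34.6% and 34.5%. Both motifs were found in 23 windows (38.3%), against 5.90% and 4.90%, and their letters overlapped in 2 of the windows. TTTAAA, which reads alike on both strands, was found in 11 windows (18.3%), against 12.2% and 10.0%. These letters describe the windows, and a match is not a measured binding site.

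After treatment 58 of the 59 genes were downregulated, none was upregulated, and *NUSAP1* alone did not pass the threshold (edgeR's quasi-likelihood test over 18066 genes, Benjamini-Hochberg adjusted *p* under 0.05). By the same test 19.1% of all genes were downregulated and 16.1% upregulated. Their log2 fold changes had a median of -4.31, beside 0.24 over all genes tested. In 35 of them the log2 fold change was under -4, a value that 0.692% of all genes reached with a significant call, and in 23 it was under -5. A further 18 lay between -4 and -2 and 6 above -2. The 5th percentile of all genes tested was -1.58, and their shares in these other ranges were not counted. Of the 100 genes with the lowest log2 fold changes in the table, 27 belonged to the list. When the test was made against a log2 fold change of 1 instead of 0, 56 of the 59 were still called lower, compared with 4.07% of all genes. Under upper-quartile normalization, which moved the balance of calls most, 57 of the 59 were lower, while 1895 genes of the whole table were lower and 4361 higher, in place of 3454 and 2910. Each of the 59 had both treated libraries below both untreated libraries in normalized counts, as did 32.3% of all genes tested. An exact permutation test of 2 against 2 libraries reaches no two-sided *p* lower than 0.333, and single calls rest on the spread that edgeR estimates across genes. In bulk RNA a smaller share of dividing cells and less RNA of these genes per dividing cell cannot be told apart.

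**Figure D1:**
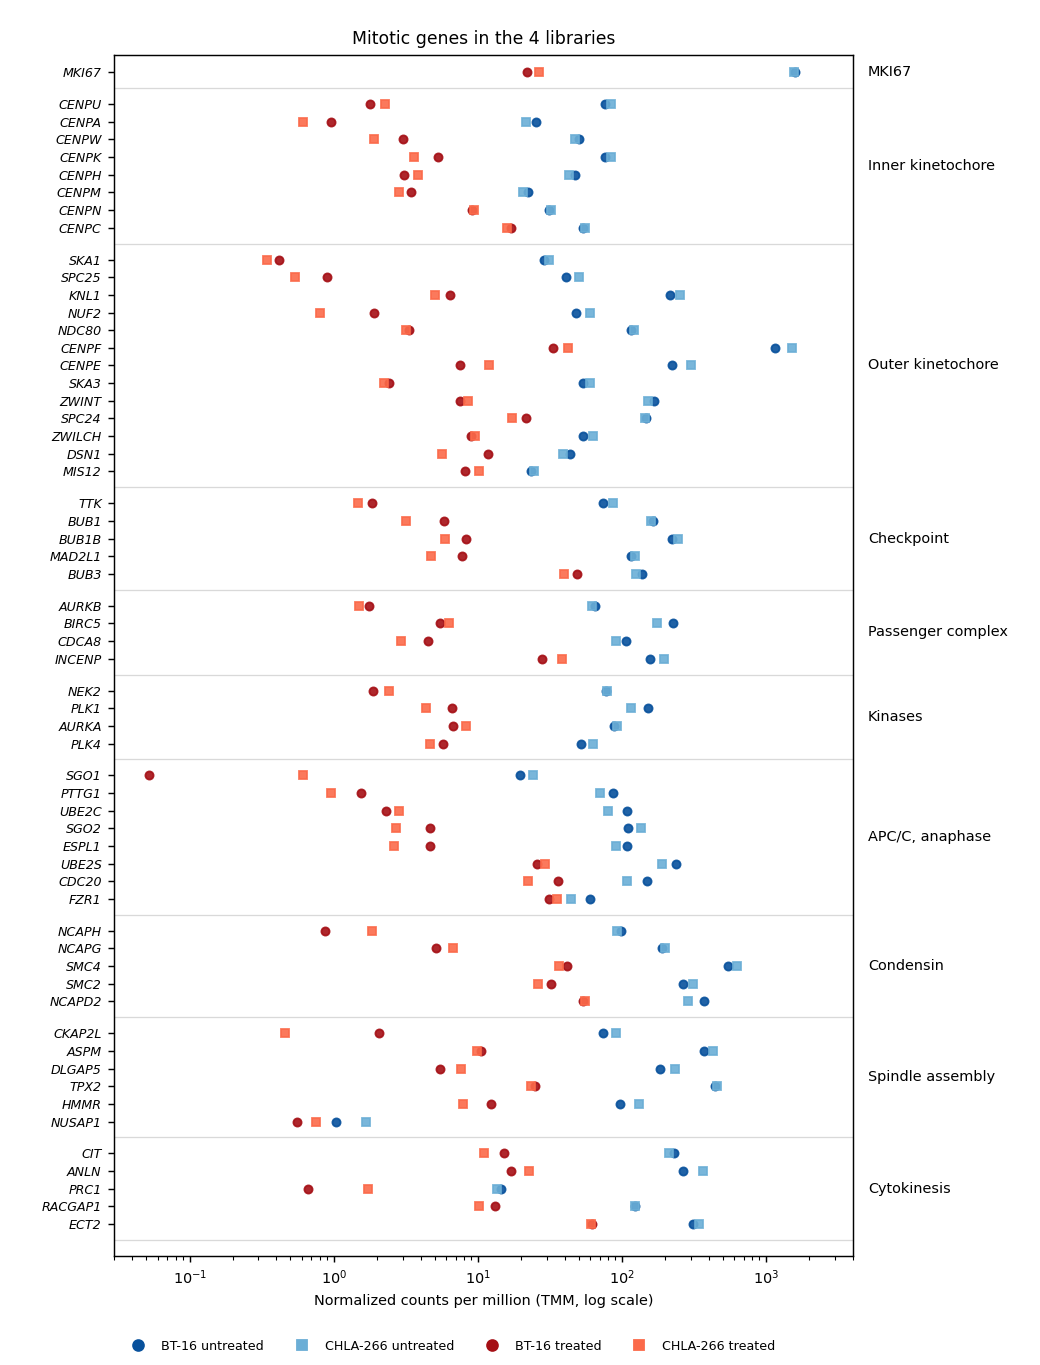
Normalized CPM (counts-per-million) (TMM, log scale) of each of the 59 genes, 1 row per gene and grouped by role, with 1 point per library (circles BT-16, squares CHLA-266, blue untreated, red treated). In each row both red points lie to the left of both blue points, and *FZR1* and *NUSAP1* have the smallest gaps.

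Where values come in pairs, BT-16 is given before CHLA-266. The libraries held 75087193 and 66192504 counts before and 51489712 and 49849257 counts after treatment. Low counts were mostly even (20.5% to 34.2% of counts from 1 to 20 were odd), and whether both reads of a pair were counted is not stated, so the intervals below, which cover counting error only, may be too narrow. *SMARCB1* RNA was counted in each library (827 to 1394 counts), so its absence could not serve as a check of the label, and the summed count of the MYC-subgroup markers, mostly *MYC* itself, was 14645 and 11703 before and 7240 and 7704 after treatment. Genes of other lineages had low summed counts, of which 5 endothelial markers came to 146 and 76 counts before and 624 and 398 after treatment and 5 fibroblast markers to 559 and 205 before and 1017 and 543 after. The 389 olfactory receptor genes, a family that is silent in most tissues, summed to 501 and 526 counts before and 5499 and 3731 after treatment. For 8 macrophage markers the sums were 443 and 204 before and 557 and 287 after treatment (1 of the 8 at 0 in each treated library), for 5 markers of the TYR subgroup 51 and 28 before and 310 and 211 after, and for 6 of the SHH subgroup 538 and 330 before and 473 and 366 after. Their part in the results was not tested. In raw counts the endothelial, fibroblast, macrophage, TYR-subgroup and olfactory receptor sums were higher in both treated libraries, while the mitotic genes were lower there. In normalized CPM, which allow for depth, the SHH-subgroup sums were 7.80 and 5.36 before and 8.18 and 7.04 after treatment. The MYC-subgroup sums were 212 and 190 before and 125 and 148 after on that scale.

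The share of the library taken by the 59 genes fell from 0.954% (716645 counts) to 0.0804% (41407 counts) in BT-16 cells. In CHLA-266 cells it fell from 1.03% (679077 counts) to 0.0719% (35819 counts). Untreated cells of both lines thus gave about the same share, and so did treated cells. Per kilobase of exon, the median level of the list was 24.7 and 25.4 normalized CPM (counts-per-million after TMM scaling) in untreated BT-16 and CHLA-266 cells, and 1.44 and 1.39 in treated cells. Among all genes, these medians stood at percentile 90.0 and 90.6 before and at percentile 49.0 and 49.1 after treatment. The list thus moved from among the more abundant genes to the middle of all genes.

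*MKI67*, which encodes the Ki-67 protein that coats mitotic chromosomes and serves as a marker of dividing cells, had 1592 and 1573 normalized CPM before and 21.8 and 26.7 after treatment. Its levels hardly differed between the cell lines before treatment, and 1.37% of the untreated level was left in BT-16 and 1.70% in CHLA-266. It alone supplied 15.3% and 14.3% of the counts of the list before treatment and 3.05% and 3.87% afterwards. Together with the kinetochore gene *CENPF*, it supplied 26.4% and 27.9% before and 7.71% and 9.98% after treatment. The log2 fold change of *MKI67* was -6.03 (SE 0.22), the fourth lowest of the list.

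The centromere and inner kinetochore genes were downregulated in 8 of 8 cases, with a median log2 fold change of -3.94. *CENPU*, a subunit of the centromere-associated network that binds PLK1, had 5288 and 5140 counts in the untreated and 103 and 117 in the treated libraries. Treated cells kept 2.32% and 2.70% of its untreated level, and its log2 fold change of -5.31 (SE 0.22, edgeR adjusted *p* = 1.92e-06) was the lowest of the group. *CENPC*, the DNA-bound scaffold on which the kinetochore is built, had 3705 and 3416 counts before treatment and 989 and 834 afterwards. It kept 31.9% and 28.9% of its untreated level, with the smallest change of the group (log2 fold change -1.72, SE 0.17, edgeR adjusted *p* = 0.000229). *CENPN*, which reads the centromeric nucleosome, stood close to it with a log2 fold change of -1.77 (SE 0.21). *CENPA*, the histone variant that marks centromeres, was counted 1758 and 1322 times before and 55 and 32 times after treatment, with a log2 fold change of -4.90. The other 4 genes, *CENPW*, *CENPK*, *CENPH* and *CENPM*, had log2 fold changes of -4.31, -4.18, -3.70 and -2.78. *CENPC* and *CENPN* thus kept more of their untreated level in both cell lines than the other 6 genes of the group.

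The outer kinetochore genes were downregulated in 13 of 13 cases, with a median log2 fold change of -4.75. *SKA1*, which keeps kinetochores on shrinking microtubules, had the lowest log2 fold change of all 59 genes. It was counted 1986 and 1926 times before and 24 and 18 times after treatment. Its log2 fold change was -6.29 (SE 0.30, edgeR adjusted *p* = 3.18e-06), which is not separated from that of the next genes in the order by more than their standard errors. *MIS12* had 1599 and 1521 counts in the untreated and 467 and 526 in the treated libraries. It kept 34.8% and 41.0% of its untreated level (log2 fold change -1.40, SE 0.23, edgeR adjusted *p* = 0.00277), and among 15 alternative settings of the analysis lost its call only when tested against a log2 fold change of 1 (adjusted *p* = 0.115 in edgeR). *DSN1*, a subunit of the same MIS12 complex, kept 26.8% in BT-16 and 14.4% in CHLA-266 (log2 fold change -2.25, and -2.87 without treated BT-16 cells). *KNL1*, the platform on which checkpoint proteins gather, fell further (log2 fold change -5.37), from 14979 and 15619 to 369 and 260 counts. *ZWINT* and *ZWILCH*, which belong to the machinery that brings dynein to kinetochores, had log2 fold changes of -4.30 and -2.65. *CENPE*, a kinetochore motor that gathers chromosomes at the spindle equator, and *CENPF*, a large coat protein of the outer kinetochore, had log2 fold changes of -4.75 and -5.14, and *SKA3*, a partner of *SKA1*, one of -4.61.

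Within the NDC80 complex, the rod whose 4 subunits are present in equal numbers and bind the microtubule, the RNA levels parted. *SPC24* had 147 and 144 normalized CPM before and 21.6 and 17.4 after treatment. Its partner *SPC25* had 41.1 and 50.1 before and 0.899 and 0.539 after. *SPC24* thus kept 14.7% and 12.1% of its untreated level and *SPC25* kept 2.19% and 1.08%, with log2 fold changes of -2.90 (SE 0.18) and -5.97 (SE 0.32). *NDC80* and *NUF2* had log2 fold changes of -5.19 and -5.31, nearer to that of *SPC25*, and *NUF2* moved to -6.06 without treated BT-16 cells. Per kilobase of exon, the highest level of the 4 subunits was 3.60 times the lowest in untreated and 15.5 times in treated BT-16 cells. In CHLA-266 cells it was 2.85 times the lowest before and at least 15.1 times after treatment, where *NUF2* lay under the 95th percentile of the olfactory receptor genes and that percentile was taken in its place. *SPC24* was the highest in each of the 4 libraries.

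**Figure D2:**
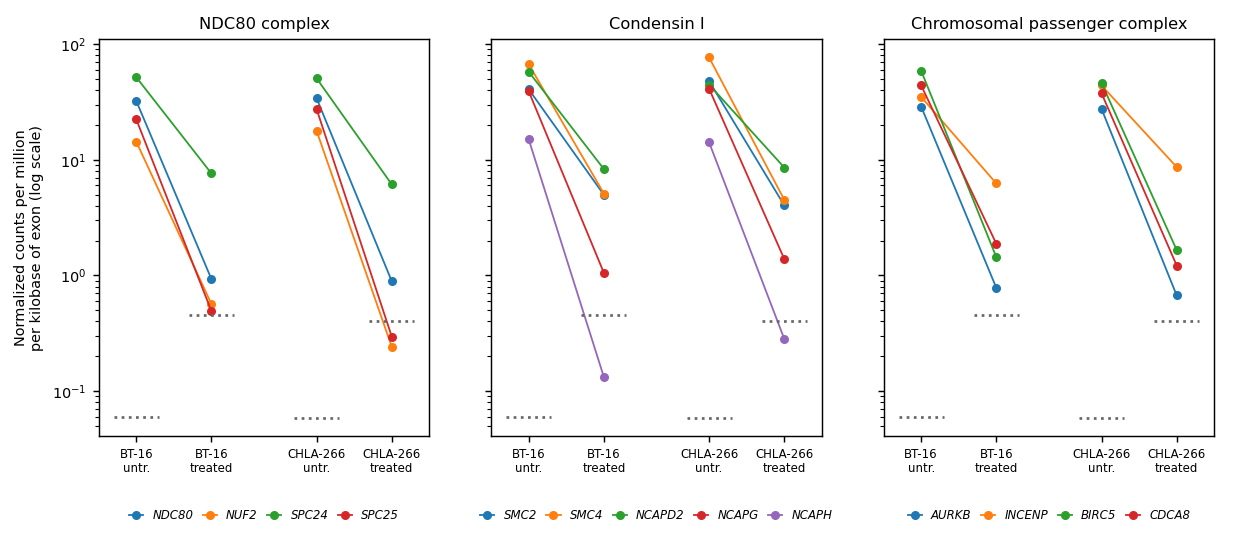
Normalized CPM per kilobase of exon (log scale) of the subunits of the NDC80 complex, condensin I and the chromosomal passenger complex, with 1 line per gene and cell line from untreated to treated. The lines spread out after treatment. *SPC24*, *SMC4* and *BIRC5* were the highest of their complexes in untreated cells, and *SPC24*, *NCAPD2* and *INCENP* in treated cells. Dotted marks give the 95th percentile of olfactory receptor genes in that library.

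The spindle checkpoint genes were downregulated in 5 of 5 cases (median log2 fold change -5.04). *TTK*, the kinase that starts checkpoint signaling, had 5082 and 5344 counts before treatment and 107 and 76 afterwards. It kept 2.51% and 1.68% of its untreated level (log2 fold change -5.59, SE 0.23, edgeR adjusted *p* = 1.92e-06). *BUB3*, which also acts outside mitosis, was counted 9448 and 7664 times before and 2812 and 2056 times after treatment. It kept 35.5% and 31.8% (log2 fold change -1.57, SE 0.17, edgeR adjusted *p* = 0.000358). The kinase *BUB1* and its relative *BUB1B*, both of which bind *BUB3*, fell to 3.56% and 3.70% in BT-16 and to 1.99% and 2.42% in CHLA-266, with log2 fold changes of -5.16 and -5.04. *MAD2L1*, which encodes the protein that captures CDC20, fell to 6.77% and 3.82% (log2 fold change -4.25). *BUB3* thus stood apart from its 2 partners by more than 3 units on the log2 scale in these values.

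The chromosomal passenger complex was downregulated in 4 of 4 genes (median log2 fold change -4.90). *AURKB*, its kinase, had 4467 and 3795 counts in the untreated and 101 and 78 in the treated libraries (log2 fold change -5.28, SE 0.22, edgeR adjusted *p* = 1.92e-06). *INCENP*, the scaffold that activates the kinase, had 10749 and 12041 counts before treatment and 1606 and 2001 afterwards (log2 fold change -2.41, SE 0.21, edgeR adjusted *p* = 0.000107). *AURKB* kept 2.70% and 2.43% of its untreated level and *INCENP* 17.8% and 19.7%, in the same order in both cell lines. *BIRC5* (survivin) and *CDCA8* (borealin), which take the complex to the centromere, had log2 fold changes of -5.09 and -4.72. In untreated cells the 4 levels per kilobase lay within a factor of 2.04 in BT-16 and 1.68 in CHLA-266. In treated cells they spanned a factor of 8.0 and 12.9, with *INCENP* at 6.24 and 8.65 normalized CPM per kilobase and *AURKB* at 0.780 and 0.670.

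The mitotic and centrosomal kinases were downregulated in 4 of 4 cases (median log2 fold change -4.09). *NEK2*, which separates the centrosomes, was counted 5374 and 4830 times before and 108 and 126 times after treatment (log2 fold change -5.19, SE 0.22, edgeR adjusted *p* = 1.99e-06). *PLK4*, which starts the duplication of centrioles, had 3594 and 3851 counts in the untreated and 331 and 240 in the treated libraries (log2 fold change -3.47, SE 0.22, edgeR adjusted *p* = 1.31e-05). *PLK1*, the kinase with functions from mitotic entry to cytokinesis, had 10407 and 7124 counts before treatment and 381 and 227 afterwards, and *AURKA*, which matures the spindle poles, had 6100 and 5654 before and 390 and 431 after. Their log2 fold changes were -4.60 and -3.58. In none of the 4 kinases did the conditions overlap, and 32.3% of all genes tested likewise had both treated libraries below both untreated ones.

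The group of APC/C activators, ubiquitin enzymes and anaphase substrates held genes near both ends of the order of changes, with 8 of 8 downregulated and a median log2 fold change of -4.91. *SGO1* (shugoshin), which protects cohesin at centromeres, was counted 1358 and 1479 times before and 3 and 32 times after treatment. The log2 ratio was -8.35 in BT-16 (95% interval by the exact Clopper-Pearson method -10.85 to -7.02) and -5.26 in CHLA-266 (-5.84 to -4.78). Over both lines its log2 fold change was -6.05 with the largest standard error of the list (0.76, adjusted *p* = 0.000682 in edgeR), and it moved to -5.15 without treated BT-16 cells and to -8.65 without treated CHLA-266 cells.

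*FZR1*, the activator that keeps the APC/C running after mitosis and in resting cells, had 4161 and 2725 counts in the untreated and 1807 and 1849 in the treated libraries. It kept 51.8% of its untreated level in BT-16 cells and 80.4% in CHLA-266 cells. Its conditions did not overlap (60.3 and 44.3 against 31.3 and 35.6 normalized CPM). Its log2 fold change of -0.65 (SE 0.20, edgeR adjusted *p* = 0.0348) was the smallest of the list. The call was lost under upper-quartile normalization (-0.30, edgeR adjusted *p* = 0.236) and in 6 other settings, among them those without untreated BT-16 cells (-0.41) and without treated BT-16 cells (-0.55). *CDC20*, the activator used at the start of anaphase, had 10245 and 6692 counts before treatment and 2093 and 1165 afterwards (log2 fold change -2.13, SE 0.26), and so lay between *FZR1* and the remaining genes. The ubiquitin-conjugating enzymes *UBE2C* and *UBE2S*, which start and extend ubiquitin chains on APC/C substrates, had log2 fold changes of -5.19 and -2.96. Securin (*PTTG1*), separase (*ESPL1*) and *SGO2* had log2 fold changes of -5.97, -4.77 and -5.05.

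The condensin genes were downregulated in 5 of 5 cases (median log2 fold change -3.90). *NCAPH*, the kleisin that closes the condensin I ring, was counted 6788 and 5701 times before and 50 and 96 times after treatment (log2 fold change -6.14, SE 0.34, edgeR adjusted *p* = 6.77e-06, and -6.77 without treated CHLA-266 cells). *NCAPD2*, a subunit of the same complex, had 25784 and 17800 counts in the untreated and 3109 and 2883 in the treated libraries (log2 fold change -2.60, SE 0.19, edgeR adjusted *p* = 2.94e-05). *NCAPH* kept 0.879% and 1.99% of its untreated level, and *NCAPD2* 14.4% and 19.2%. *NCAPG*, the other regulatory subunit, had a log2 fold change of -5.04, whereas the ATPases *SMC4* and *SMC2*, which condensin I shares with condensin II, had -3.90 and -3.30 on that scale. Per kilobase, the highest of the 5 levels was 4.46 times the lowest in untreated BT-16 and 5.42 times in untreated CHLA-266 cells. *NCAPH* was the lowest of the 5 in each library, and in treated cells it lay under the 95th percentile of the olfactory receptor genes in both lines. With that percentile in its place, the highest level was at least 18.3 and 21.2 times the lowest in treated cells.

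The spindle assembly factors were downregulated in 5 of 6 cases (median log2 fold change -4.61). *CKAP2L*, which organizes spindle fibers, had 5109 and 5552 counts before treatment and 119 and 24 afterwards. Its log2 fold change was -6.01 (SE 0.55, edgeR adjusted *p* = 0.000126), and -5.31 and -7.47 without treated CHLA-266 and without treated BT-16 cells. *ASPM*, which focuses the spindle poles, had a log2 fold change of -5.29, and *DLGAP5*, which stabilizes kinetochore fibers, kept 2.96% and 3.26% of its untreated level. *TPX2*, which activates Aurora A on the spindle, was counted 30701 and 27944 times before and 1435 and 1215 times after treatment (log2 fold change -4.22), and *HMMR*, which places TPX2 at the poles, had a log2 fold change of -3.49. *NUSAP1*, which bundles spindle microtubules, had 71 and 103 counts in the untreated and 32 and 39 in the treated libraries, the lowest untreated counts of the list. It was lower in both treated libraries, with a log2 fold change of -1.05 (SE 0.70, edgeR adjusted *p* = 0.265). Other genes cover 86.8% of the *NUSAP1* exon bases on the same strand (among them *OIP5* and *OIP5-AS1*, GENCODE 44), and how reads in shared exons were counted is not stated, so the level of *NUSAP1* is uncertain.

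The cytokinesis genes were downregulated in 5 of 5 cases (median log2 fold change -3.56). *CIT*, a kinase of the midbody, had 15727 and 13138 counts before treatment and 875 and 577 afterwards (log2 fold change -4.07, SE 0.21, edgeR adjusted *p* = 4.59e-06). *ECT2*, which switches on RhoA at the division plane, was counted 21399 and 20974 times before and 3590 and 3193 times after treatment (log2 fold change -2.40, SE 0.16, edgeR adjusted *p* = 2.07e-05). *ECT2* kept 20.0% and 18.0% of its untreated level and *CIT* 6.64% and 5.20%. *RACGAP1*, which recruits ECT2 to the spindle midzone, had a log2 fold change of -3.41, and *ANLN*, which ties the contractile ring together, kept 6.37% and 6.20% of its untreated level. *PRC1*, which bundles the midzone microtubules, had 1005 and 840 counts in the untreated and 38 and 90 in the treated libraries (log2 fold change -3.56, SE 0.47, and -4.41 without treated CHLA-266 cells). Its exons overlap those of other genes on the same strand over 57.6% of their bases, so its level is uncertain too.

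**Figure D3:**
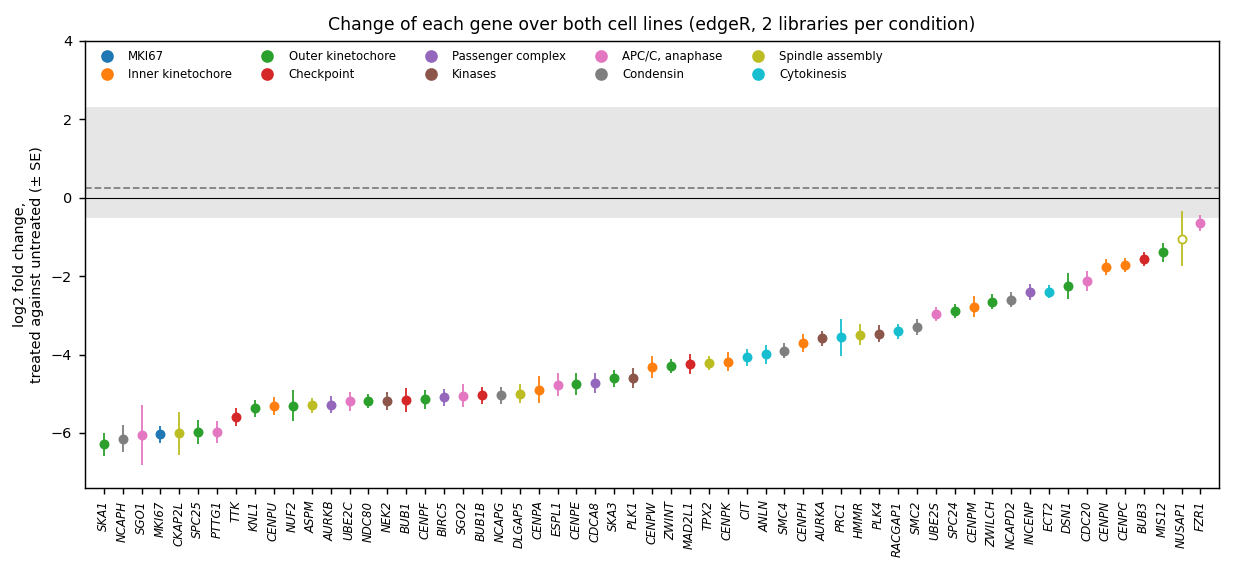
Log2 fold change of each gene (treated against untreated, edgeR, 2 libraries per condition) in rising order, with bars of 1 standard error and colors for the role, and an open symbol for the gene that did not pass the threshold. The dashed line is the median of all genes tested (0.24) and the grey band runs from their 25th to their 75th percentile (-0.50 to 2.28). *FZR1* (-0.65) and *NUSAP1* (-1.05) lie closest to 0.

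The order from *SKA1* to *FZR1* had few steps. Standard errors lay between 0.16 and 0.76 (median 0.23), and neighbors in the order mostly differed by less than that. At the lower end the 7 genes from *SKA1* to *PTTG1* lay between -6.29 and -5.97. Of these 7, *SKA1*, *NCAPH*, *SGO1* and *CKAP2L* had treated levels within the range of olfactory receptor genes in both lines, and *SPC25* in CHLA-266. At the upper end the 6 genes above -2 were *CENPN* (-1.77), *CENPC* (-1.72), *BUB3* (-1.57), *MIS12* (-1.40), *NUSAP1* (-1.05) and *FZR1* (-0.65), which come from 5 different role groups. Among the genes with a promoter window, the 33 with the CHR letters had a median log2 fold change of -4.30 and the 16 without them -4.90. The 37 with CCAAT had -4.31 and the 12 without -4.68, and the 10 genes with no window had -3.96. These medians count letters anywhere in a window, also far from the start, and a link between the letters and the change was not tested.

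Within each cell line the 59 genes were lower in treated than in untreated cells, with exact 95% intervals that left out 0 in 59 of 59 in both lines. Of all genes tested, 39.1% had such an interval below 0 in BT-16, 36.8% in CHLA-266 and 32.0% in both. The log2 ratios had a median of -4.46 in BT-16 cells and of -4.66 in CHLA-266 cells. In 39 genes the ratio was lower in CHLA-266 and in 20 it was lower in BT-16, and the median distance between the lines was 0.37. With 1 library per cell line and condition, a difference in response between the lines could not be tested, and intervals that do not overlap (35 genes) cover counting error only. Neither these counts nor the next was taken over all genes tested, and they describe the list alone. The distance was over 1 in 8 genes. *SGO1*, *PRC1* and *NCAPH* fell further in BT-16, and *CKAP2L*, *NUF2*, *SGO2*, *HMMR* and *SPC25* fell further in CHLA-266. *CKAP2L* showed the widest distance after *SGO1*, with a log2 ratio of -5.16 in BT-16 (-5.44 to -4.91) and -7.58 in CHLA-266 (-8.25 to -7.03). *NUF2* had 3335 and 3675 counts before treatment and 110 and 42 afterwards, and log2 ratios of -4.66 and -6.19. *HMMR* had 6689 and 8082 counts before and 715 and 411 after, with log2 ratios of -2.97 and -4.05. Of these 8 genes, all except *SGO2* and *HMMR* were among those with treated levels close to those of silent genes in at least 1 line.

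**Figure D4:**
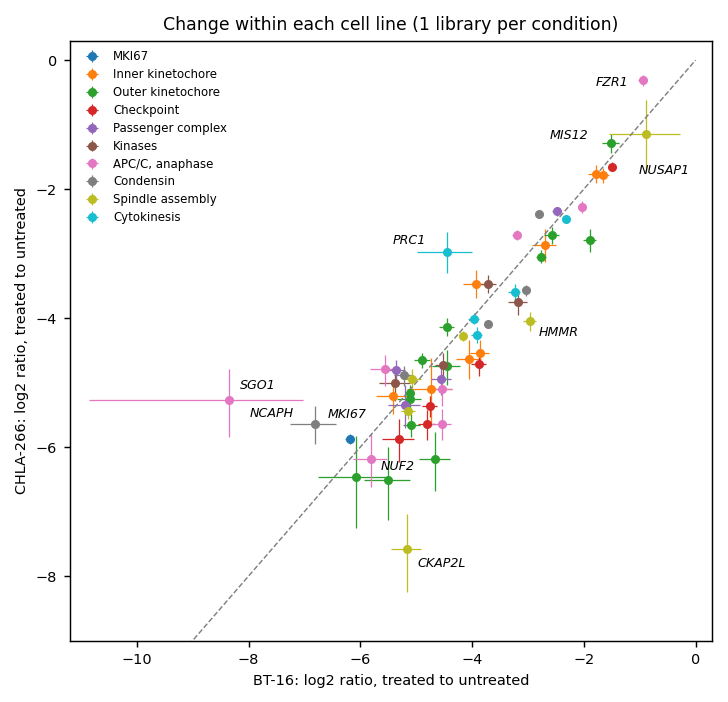
Log2 ratio of treated to untreated normalized counts in BT-16 (horizontal) and CHLA-266 (vertical), 1 point per gene, with exact 95% intervals for counting error and a dashed line of equal change. All 59 points lie below 0 on both axes, most lie near the line, and *SGO1* and *CKAP2L* lie farthest from it.

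To see how low the treated levels were, they were set beside the olfactory receptor genes. The 95th percentile of this family was 4.10 and 3.58 counts per kilobase in untreated BT-16 and CHLA-266 cells and 26.2 and 21.0 in treated cells, where 77.1% and 55.0% of the family were detected, compared with 31.9% and 23.7% before. In untreated cells 59 of 59 mitotic genes lay above that level in both lines. After treatment 47 lay above the higher level of treated cells in both lines. The share of all genes above these levels was not counted, so 59 and 47 describe the list alone. *SKA1*, *TTK*, *SGO1*, *NCAPH*, *NUSAP1*, *CKAP2L* and *PRC1* were at or under the level of treated cells in both lines, and *CENPA*, *NUF2*, *SPC25*, *ESPL1* and *CIT* in CHLA-266 only. *SKA1* had 8.28 and 6.21 counts per kilobase in treated BT-16 and CHLA-266 cells and *TTK* had 23.4 and 16.6. In the lines named, the treated level per kilobase of exon of these 12 genes was within the range of the silent family. For *CIT* this rests on an exon length of 28605 bases. It had 577 counts in treated CHLA-266 cells, or 20.2 per kilobase, just under the 21.0 of the family. *CDC20* had the highest level of the list in treated BT-16 cells (18.0 normalized CPM per kilobase) and *ECT2* in treated CHLA-266 cells (11.2), whereas *MKI67* (124) and *TPX2* (126) were highest in the respective untreated cells.

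Between the cell lines, 2 of the 59 genes differed with the condition in the model (edgeR, adjusted *p* under 0.05), compared with 2.30% of all genes tested. *CDC20* was higher in BT-16 than in CHLA-266 both before (149 against 109 normalized CPM) and after treatment (36.2 against 22.4), with a log2 difference of 0.57 (SE 0.15, adjusted *p* = 0.0396 in edgeR). *CENPE* was lower in BT-16 both before (222 against 300.4) and after treatment (7.49 against 11.9), with a log2 difference of -0.54 (SE 0.15, adjusted *p* = 0.0484 in edgeR). This count of 2 is close to the share in the whole table. At an unadjusted *p* under 0.05 in edgeR there were 13 of the 59, a larger share than the 10.0% of all genes tested. DESeq2 called 1 gene and limma none, and edgeR called none with a filter on low counts. Of the 59 genes, 33 were higher in BT-16, and the median log2 difference was 0.03, beside 0.05 over all genes.

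Other genes of the same processes were measured as well, from lists of 99 genes of which 96 were in the table. Of these, 64 were downregulated, 2 upregulated and 30 not called, with a median log2 fold change of -1.06. Of 13 other centromere genes 10 were downregulated (median -2.29), from *CENPQ* (-3.69) to *CENPT* (-0.10, adjusted *p* = 0.686 in edgeR). *CENPT*, which anchors the NDC80 complex to centromeric DNA, was counted 4405 and 4346 times before and 3120 and 3726 times after treatment. Of 9 other outer kinetochore and checkpoint genes 7 were downregulated (median -1.59), from *TRIP13* (-2.95), the ATPase that disassembles checkpoint complexes, to *MAD2L1BP* (-0.25, not called). Of 13 condensin II and cohesin genes 9 were downregulated (median -1.11), from *ESCO2* (-4.70) to *ESCO1* (-0.20, not called), a pair of acetyltransferases of cohesin of which *ESCO2* acts in S phase. The 7 centriole duplication genes were downregulated (median -1.72), from *CEP152* (-3.20) to *PCNT* (-1.27).

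The subunits of the APC/C itself mostly had small log2 fold changes. Of 15 core and inhibitor genes 8 were downregulated and 7 not called (median -0.70). *FBXO5*, which encodes the inhibitor EMI1, was the lowest, with 7313 and 7304 counts before and 708 and 571 after treatment (log2 fold change -3.27, SE 0.18). *ANAPC2*, the cullin subunit, was the highest, with 2141 and 1758 counts before and 1551 and 1348 after treatment (log2 fold change -0.18, adjusted *p* = 0.460 in edgeR). Of 13 other cytokinesis and abscission genes, which hold myosins, septins and ESCRT subunits with functions throughout the cell cycle, 5 were downregulated and 8 not called (median -0.30). They ran from *DIAPH3* (-5.51), a formin of the contractile ring, to *VPS4B* (0.11, not called), an ATPase of membrane scission. Of 13 genes of mitotic entry and phosphatase control 9 were downregulated (median -1.15), the lowest of them *GTSE1* (-5.06). *CDC25B*, a phosphatase that activates cyclin-dependent kinases, was upregulated, with 15064 and 10366 counts before and 19595 and 18024 after treatment (log2 fold change 0.83, SE 0.18, edgeR adjusted *p* = 0.00903).

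Of 13 genes for mitotic transcription factors, DREAM subunits and p21 (*CDKN1A*), 9 were downregulated, 1 was upregulated and 3 were not called (median -0.73). *MYBL2* had 13162 and 13397 counts in the untreated and 159 and 276 in the treated libraries, and *FOXM1* had 13898 and 12042 before and 389 and 435 after. Both fell by amounts within the range of the mitotic list, with log2 fold changes of -5.67 (SE 0.32) and -4.72 (SE 0.20). *RBL2*, which encodes the DREAM subunit p130, had 3710 and 2686 counts before treatment and 1682 and 1755 afterwards (log2 fold change -0.63), and *E2F4* had a log2 fold change of -0.73. *CDKN1A*, whose product inhibits cyclin-dependent kinases, was counted 8181 and 6485 times before and 25541 and 19760 times after treatment. It was the upregulated gene of these 13 and neither a transcription factor nor a DREAM subunit (log2 fold change 1.88, SE 0.17, edgeR adjusted *p* = 0.000136), with both treated libraries above both untreated ones. *RBL2* and *E2F4* were chosen for mention after their values were seen.

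**Figure D5:**
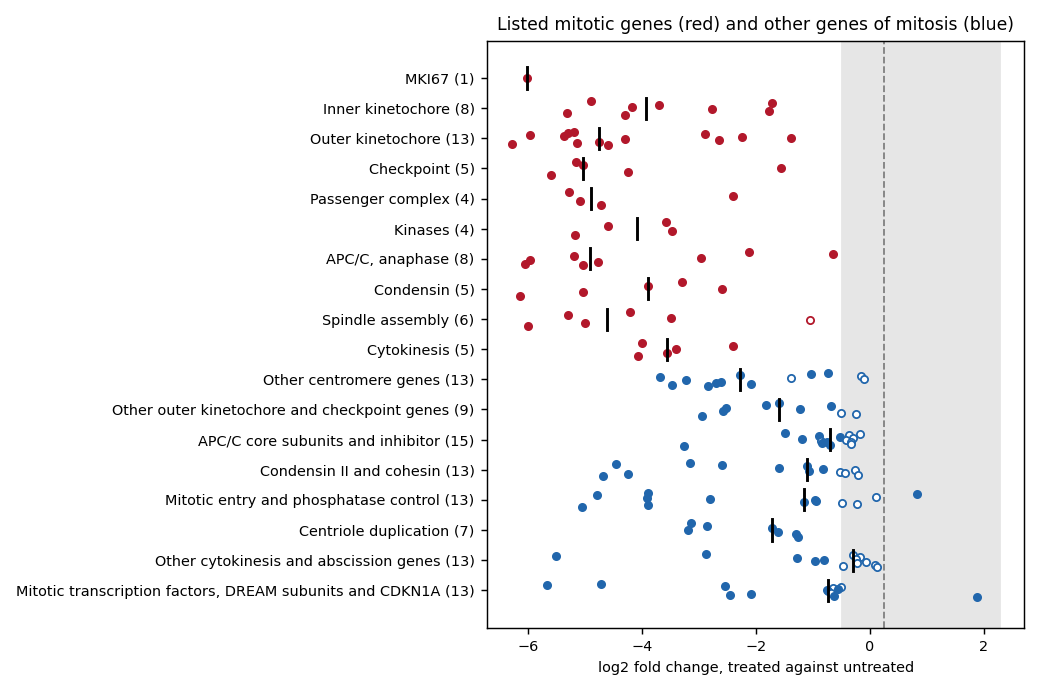
Log2 fold change (treated against untreated) of the genes of each role group of the list (red) and of each list of other genes of the same processes (blue), with the number of genes in parentheses, filled symbols for genes past the threshold and a black bar for the median. The dashed line and grey band are the median and the 25th to 75th percentile of all genes tested. Medians of the red groups lie between -6.03 and -3.56 and those of the blue lists between -2.29 and -0.30, with *CDKN1A* farthest to the right at 1.88.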

How the data were processed

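RNA of untreated and treated BT-16 and CHLA-266 cells was sequenced in 4 libraries, which were grouped by the cell line and treatment that the labels name. Per the methods and the submitters' processing notes, the authors demultiplexed reads with bcl2fastq 2.20, aligned them to hg38 with STAR, counted them per gene, and removed repeated genes and genes of the sex chromosomes. The strand setting of the counting is not given in the sources used here. The authors deposited estimated counts per gene symbol, not normalized, of which 5 values in 2 genes had decimals and were rounded to whole numbers, none of them in the 59 genes. The log2 values that the authors deposited are a variance-stabilizing transformation (VST) of these counts and were used for 1 alternative only.

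Genes with a total above 0 (18066) were tested with edgeR 4.0.16 in R 4.3.3 (quasi-likelihood test after TMM normalization, *p* values adjusted over all genes by the Benjamini-Hochberg method, threshold 0.05) with the condition alone in the model, and the cell lines were compared with the condition as a further term. Log2 ratios within a cell line used normalized counts with 0.5 counts added and exact Clopper-Pearson 95% intervals. Levels per kilobase used exon lengths of GENCODE 44. The untreated and treated libraries are paired by cell line, and over 12620 genes the deviations of the pair from the means of their conditions correlated at 0.259. Alternatives were a block for the cell line in edgeR and in DESeq2 1.42.0, DESeq2 without it, its size factors in edgeR, upper-quartile normalization, library totals, filters on low counts, limma 3.58.1 on the VST values, a threshold on a log2 fold change of 1, each library left out, and halved counts. The scripts were tested on simulated data.

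Genes given in full were, by a fixed rule, *MKI67*, the lowest and highest log2 fold change of each role group, genes past no threshold, the lowest and highest of each other list, *FOXM1* and *MYBL2*. The 59 genes and all lists were chosen with earlier results of these data known. Genes that differed between the cell lines, those at the level of silent genes and other examples were named after their values were seen. Of the listed genes, *CENPI*, *SMC1A*, *STAG2* and the marker *HOTAIR* were not analysed here, and 1 further gene of the lists is not reported here.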

Additional observations from a re-analysis of the deposited data

How the results depend on the processing

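Over 15 alternatives and 59 genes, 876 values kept their direction and their side of the threshold, 8 lost the call and none reversed. The losses were *FZR1* in 7 alternatives, with an adjusted *p* in edgeR from 0.0547 to 1.00 (limma 0.0559), and *MIS12* when tested against a log2 fold change of 1. The number of downregulated genes was 56 to 58 under each alternative, and 56 of 58 with at least 10 counts in every library, a filter that removed *SGO1*. Leaving out each library in turn gave 57 to 58. The median log2 change of the 59 was -3.95 with upper-quartile normalization, -4.07 with library totals and -3.57 with limma on VST values, a compressed scale, and -4.66 to -4.30 with each library left out. Over all genes the median was 0.24 under TMM, 0.31 under DESeq2 size factors, 0.46 under library totals and 0.59 under the upper quartile, so the medians of the list shift along with it. With a block for the cell line, the call changed in none of the 59 genes (58 lower), and 71 of the other genes were lower in place of 64. Between the cell lines the 2 calls became 1 in DESeq2 with the block, 4 with DESeq2 size factors, 3 with library totals and 0 with limma or with either filter on low counts, and the cause was not tested. No fit without 1 library was made for the cell lines, because it leaves no residual degrees of freedom. Within 1 library per condition, depth limits the treated levels of genes such as *SGO1* with 3 counts.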
